A study of Mus musculus with 2 samples.

Results

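The DARPP-32 family and protein phosphatase 1 (PP1) were described here as 10 genes, taken by symbol from 32531 named genes: Ppp1r1b, Ppp1r1a, Arpp21, Arpp19, Ensa, Ppp1ca, Ppp1cb, Ppp1cc, Ppp1r9b and Cdk5. All 10 symbols were found, and all 10 reached 1 CPM, that is 1 read in 1000000 reads assigned to named genes, in both libraries. The RNA came from the ventral striatum of adult, untreated control mice of the TRAP line Stard5-EGFP/Rpl10a (JX5852). In TRAP, ribosomes carrying EGFP on the protein L10a are pulled down with antibodies, here from cells in which the Stard5 regulatory sequence drives the tag, and the RNA they hold is sequenced. The series has 1 group of 2 libraries of pulled-down RNA, replicates 1 and 2, of 1 mouse line. Whether the replicates are separate animals, or pools of animals, is not in the labels, and their spread may thus be technical. No library of input RNA was analysed here, so no level below is an enrichment over the tissue.

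DARPP-32, the product of Ppp1r1b, is a switch between dopamine signalling and dephosphorylation in spiny projection neurons, the GABAergic output cells of the striatum. When protein kinase A (PKA), which dopamine D1 receptors activate through cyclic AMP, phosphorylates a threonine near its start, it becomes an inhibitor of PP1. When Cdk5 phosphorylates another threonine, it inhibits PKA instead. Inhibitor-1, encoded by Ppp1r1a, is its relative with the same PKA-gated action on PP1. ARPP-21, ARPP-19 and ENSA are further small phosphoproteins regulated by cyclic AMP, and the latter pair inhibit another phosphatase, PP2A with a B55 subunit, once the kinase Greatwall has phosphorylated them. Spinophilin, encoded by Ppp1r9b, holds PP1 in dendritic spines.

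The coding sequences that carry these switches are shown first, since they are what the inhibitors share. They are GENCODE M21 transcript sequences on GRCm38. In the first pair, capitals mark the codons of the PP1 docking motif (residues 8 to 11 of DARPP-32 and 9 to 12 of inhibitor-1) and of the threonine that PKA phosphorylates (residue 34 of DARPP-32 and 35 of inhibitor-1). Both run across exons 1 and 2, at chr11:98349115-98350601 on the plus strand and chr15:103534378-103537854 on the minus strand.
Ppp1r1b: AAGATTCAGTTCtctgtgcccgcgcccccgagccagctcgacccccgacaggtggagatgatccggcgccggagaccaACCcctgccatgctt
Ppp1r1a: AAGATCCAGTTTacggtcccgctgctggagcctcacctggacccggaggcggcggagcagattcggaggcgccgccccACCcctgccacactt
Over the whole coding sequence the genes are less alike: 52 of 170 aligned residues (30.6%) were identical in the translations of the coding sequences, of 194 and 171 residues. The Cdk5 site of DARPP-32 lies in exon 4, at chr11:98351308-98351340 on the plus strand, with the codon of threonine 75 in capitals.
Ppp1r1b: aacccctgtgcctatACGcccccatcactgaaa
The Greatwall sites of ARPP-19 (serine 62, exon 3, chr9:75056635-75056667, plus strand) and ENSA (serine 67, exon 3, chr3:95628541-95628573, plus strand) are shown because the coding stretch around them is nearly the same in both genes. Capitals mark the serine codon.
Arpp19: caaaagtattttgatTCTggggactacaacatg
Ensa: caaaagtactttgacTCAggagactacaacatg
Here 87 of 112 aligned residues (77.7%) were identical. Spinophilin carries a PP1 docking motif of the same kind (capitals, residues 448 to 451, exon 1, chr11:94992877-94992912, plus strand).
Ppp1r9b: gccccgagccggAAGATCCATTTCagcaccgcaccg
The PP1 catalytic subunits were 89.1% to 93.5% identical in their translations, and their coding ends, where they diverge, are shown with the codon of a threonine that cyclin-dependent kinases phosphorylate in capitals. They lie at chr19:4195036-4195089, chr5:32490999-32491055 and chr5:122174082-122174141, all on the plus strand and in exons 7, 8 and 7. That of Ppp1cc belongs to the shorter of its coding forms, of 323 residues.
Ppp1ca: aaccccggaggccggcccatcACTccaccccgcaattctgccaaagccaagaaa
Ppp1cb: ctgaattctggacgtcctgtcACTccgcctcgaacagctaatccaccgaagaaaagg
Ppp1cc: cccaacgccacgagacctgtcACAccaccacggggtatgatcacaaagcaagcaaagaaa

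The libraries held 25830282 and 29574781 reads in named genes in replicates 1 and 2, so 1 CPM is 25.8 and 29.6 reads. Markers of spiny projection neurons fitted the labelled tissue, with 12 of 12 detected and a summed level of 9609.65 CPM in replicate 1 and 7619.8 CPM in replicate 2. Astrocyte markers were also present, 10 of 10 detected, at a summed 928 and 3077 CPM. Most of that sum was Slc1a2, at 741 and 2496 CPM. Oligodendrocyte markers were present too, 9 of 9, at 942 and 1441 CPM. Microglial markers summed to 197 and 144 CPM. Those of cholinergic interneurons, GABAergic interneurons and glutamatergic neurons summed to 88.8 and 119, 111 and 188, and 10.3 and 26.3 CPM. Endothelial and mural markers were lowest but for the glutamatergic list, at 40.1 and 44.8 CPM. No marker of these lists was at 0 reads in both libraries, and the glutamatergic transcription factor gene Neurod6 was at 0 in replicate 1 and 0.338 CPM in replicate 2.

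Ppp1r1b, the DARPP-32 gene (chromosome 11, 98348404 to 98357796, plus strand), had 746 CPM in replicate 1 and 508 CPM in replicate 2. Its mean of 627 ± 169 CPM (SD, n = 2) ranked 195 of all genes. The exact Poisson 95% intervals of the libraries, 736 to 757 and 499.6 to 516 CPM, did not overlap, and intervals here cover counting error only. Per kilobase of annotated exon, Ppp1r1b stood at 255 and 173 CPM per kb, above 99.4% of the detected genes with a known length. Of its exon bases, 15.7% are shared with 1700003D09Rik on the opposite strand, which had 2.28 and 8.55 CPM.

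Ppp1r1a, the inhibitor-1 gene (chromosome 15, 103530279 to 103538003, minus strand), was the lowest of the 10 by mean CPM. It had 30.8 CPM in replicate 1 and 12.6 CPM in replicate 2, a mean of 21.7 ± 12.8 CPM (SD, n = 2), which ranked 6381. Per kilobase of exon, Ppp1r1b exceeded it 10.8-fold in replicate 1 and 17.9-fold in replicate 2, a difference of 3.799 ± 0.51 log2 units (SD, n = 2). Of the reads of both inhibitor genes together, Ppp1r1b took 96.0% (exact Clopper-Pearson 95% interval 95.8 to 96.3) and 97.6% (97.3 to 97.8). Thus DARPP-32 was the prevailing transcript of this pair of PP1 inhibitors in both libraries. The third gene of that family, Ppp1r1c, had 26 and 5 reads and was not detected at 1 CPM in both.

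**Figure D1:**
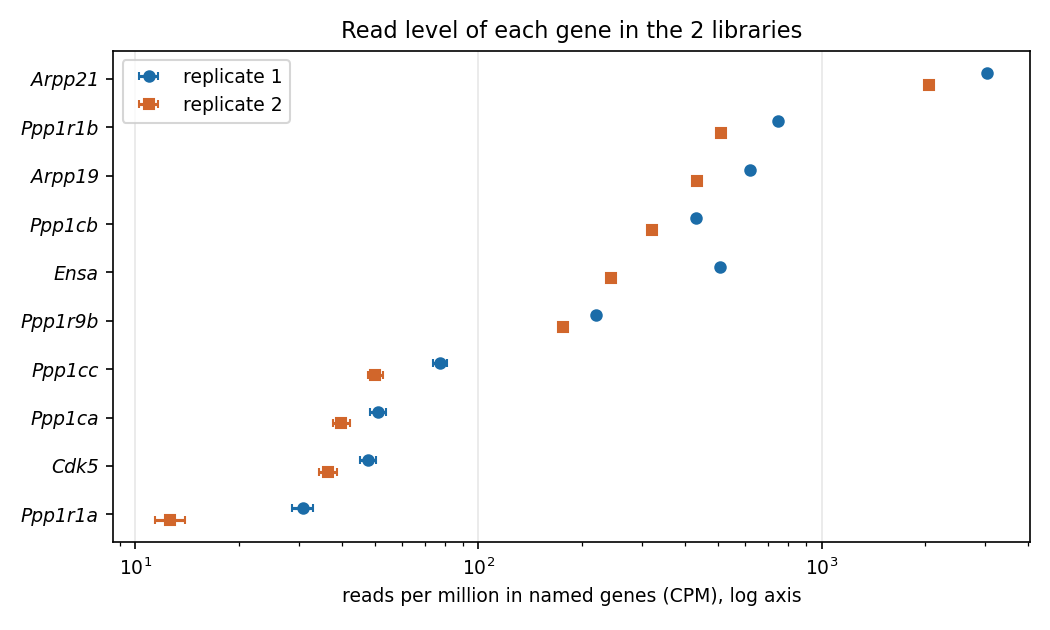
CPM (log axis) of the 10 genes in replicate 1 (circles) and replicate 2 (squares), with exact Poisson 95% intervals that are often narrower than the symbol. Levels run from 12.6 CPM for Ppp1r1a in replicate 2 to 3037 CPM for Arpp21 in replicate 1, and each gene is lower in replicate 2.

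Arpp21 (chromosome 9, 112065091 to 112235938, minus strand) encodes both ARPP-21, a small cyclic AMP-regulated phosphoprotein, and much longer RNA-binding forms. It had the most reads of the 10 genes, with 3037 CPM in replicate 1 and 2063 CPM in replicate 2, and ranked 12 of all genes by mean CPM. The annotation gives 10 complete coding transcripts for it, encoding 88 to 809 residues, and a count per gene cannot tell them apart. That matters for its place in the order of levels, since its annotated exons cover 17428 bases and its longest coding transcript 3952. Against all exon bases it stood at 174 and 118 CPM per kb, 0.55 ± 0.0011 log2 units below Ppp1r1b (SD, n = 2). Against the longest coding transcript it stood at 768 and 522 CPM per kb, 1.04 ± 0.0011 log2 units above Ppp1r1b. Which of the 2 genes is higher per length is therefore set by the length chosen, while the ratio of their reads was nearly the same in both libraries.

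Arpp19 (chromosome 9, 75037614 to 75060313, plus strand) had 618 and 435 CPM in replicates 1 and 2, a mean of 527 ± 130 CPM (SD, n = 2). Ensa (chromosome 3, 95624993 to 95632102, plus strand) had 504 and 244 CPM, a mean of 374 ± 184 CPM. Arpp19 was the higher of these PP2A inhibitor genes in both libraries, 1.32-fold per kilobase of exon in replicate 1 and 1.92-fold in replicate 2. The difference of 0.67 ± 0.38 log2 units (n = 2) kept its sign and varied in size. Of the reads of both genes, Arpp19 took 55.1% (exact 95% interval 54.5 to 55.6) and 64.0% (63.4 to 64.7) in the respective libraries, and these intervals did not overlap. Despite their similar coding sequences, no stretch of 50 bases or more of the longest coding transcript of either gene matched a transcript of another gene at 95% identity.

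Of the PP1 catalytic subunits, the beta gene Ppp1cb (chromosome 5, 32458843 to 32517433, plus strand) was highest on each scale and in both libraries. It had 429.8 CPM in replicate 1 and 319.6 CPM in replicate 2, against 77.3 and 50.01 CPM for the gamma gene Ppp1cc (chromosome 5, 122158278 to 122175273, plus strand) and 51.1 and 39.9 CPM for the alpha gene Ppp1ca (chromosome 19, 4192065 to 4195420, plus strand). Ppp1cb took 77.5% ± 0.740 of the reads of the catalytic genes (SD, n = 2). Division by length lowered its share to 47.9% and 49.0% per kilobase of exon, or 51.8% and 52.7% against the longest coding transcripts. Per kilobase it lay 0.92 ± 0.05 log2 units above Ppp1ca and 0.90 ± 0.14 above Ppp1cc (SD, n = 2).

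Ppp1ca and Ppp1cc did not differ beyond the spread of the libraries per kilobase of exon, with a difference, alpha minus gamma, of -0.02 ± 0.19 log2 units (SD, n = 2) that was -0.16 in replicate 1 and 0.12 in replicate 2. For Ppp1cc, 1506 of the 2384 bases of its longest coding transcript (63.2%) match transcripts of 4 other genes, foremost Ppp1ccb, at 95% identity or more. Reads that aligned to several places were set aside in the deposited counts, 27.9% of those counted for replicate 1 and 13.6% for replicate 2. Their part in the level of Ppp1cc was not tested. Nor was their part in its place below Ppp1cb, or in the shares and sums that include it. No such match was found for the other 9 genes. Of the exon bases of Ppp1cb, 17.5% are shared with Gm43312 on the same strand, and of Ppp1ca, 16.5% with genes on the opposite strand, among them Rad9a at 13.4 and 8.15 CPM.

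**Figure D2:**
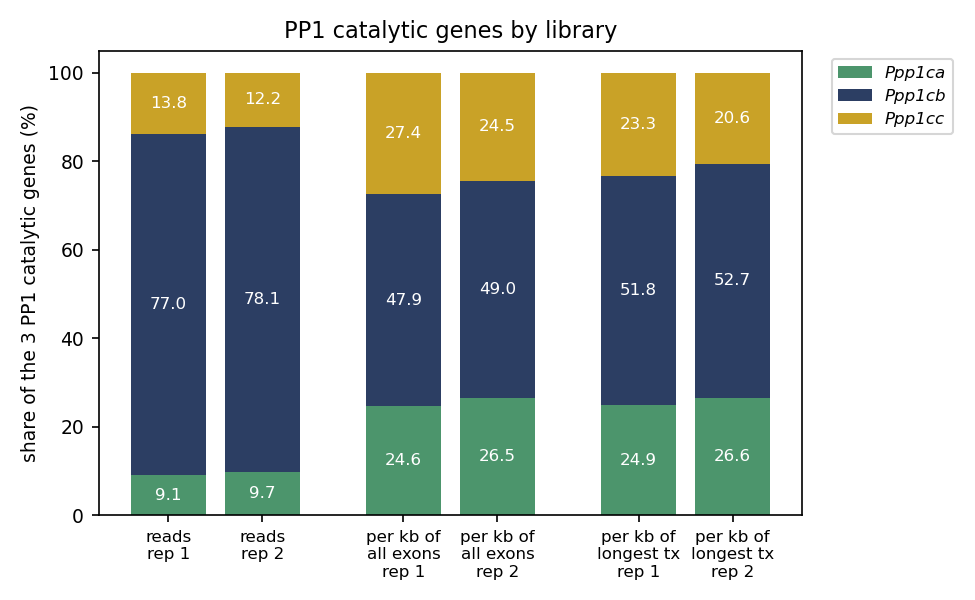
Shares, in percent, of the 3 PP1 catalytic genes in each library, as raw reads, per kilobase of all annotated exons and per kilobase of the longest coding transcript (tx). Ppp1cb falls from 77.0% and 78.1% of the reads to 47.9% and 49.0% per kilobase of exon, and stays the largest share.

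Measured per kilobase of exon, Ppp1r1b exceeded the 3 PP1 catalytic genes summed, 3.10 times in replicate 1 and 2.90 times in replicate 2. With the longest coding transcripts the ratios were 2.68 and 2.50. Without division by length the excess was smaller, with Ppp1r1b at 746 and 508 CPM and Ppp1cb alone at 429.8 and 319.6 CPM. All these values are of pulled-down RNA, not all of which need be from tagged ribosomes, and say nothing of protein amounts.

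Ppp1r9b, the spinophilin gene (chromosome 11, 94991035 to 95006899, plus strand), had 221 CPM in replicate 1 and 176 CPM in replicate 2, a mean of 198 ± 31.5 CPM (SD, n = 2). Its paralogue Ppp1r9a, which encodes the PP1-binding spine protein neurabin, was higher in both libraries, at 1566 and 2421 CPM. Per kilobase of exon the gap was 2.48-fold in replicate 1 and 4.81-fold in replicate 2, with log2 ratios of replicate 2 over replicate 1 of 0.61 for Ppp1r9a and -0.34 for Ppp1r9b, neither past the call rule given below. Cdk5 (chromosome 5, 24418241 to 24423530, minus strand), the kinase of the second DARPP-32 switch, had 47.7 and 36.3 CPM, a mean of 42.0 ± 7.996 CPM. Cdk5 needs an activator protein, and the activator gene Cdk5r1 lay 1.41 ± 0.07 log2 units above the kinase per kilobase of exon (SD, n = 2), at 235 and 193 CPM.

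Ordered per kilobase of exon, the mean levels were Ppp1r1b at 214, Arpp21 at 146, Arpp19 at 106, Ensa at 70.0, Ppp1r9b at 39.0, Ppp1cb at 34.3, Cdk5 at 19.4, Ppp1cc at 18.6, Ppp1ca at 18.0 and Ppp1r1a at 16.6 CPM per kb. From Ppp1r1b down to Cdk5 each gene lay above the next in both libraries. The last 4, Cdk5, Ppp1cc, Ppp1ca and Ppp1r1a, changed order between the libraries. Among neighbours, Ensa lay 0.76 ± 0.51 log2 units above Ppp1r9b and Ppp1r9b 0.19 ± 0.07 above Ppp1cb (SD, n = 2). The latter order turned with the longest coding transcripts, where Ppp1cb lay 0.51 ± 0.07 above Ppp1r9b. All 10 genes lay above the median detected gene, at 5.31 CPM per kb, with the lowest, Ppp1r1a, above 79.3% of detected genes with a length.

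**Figure D3:**
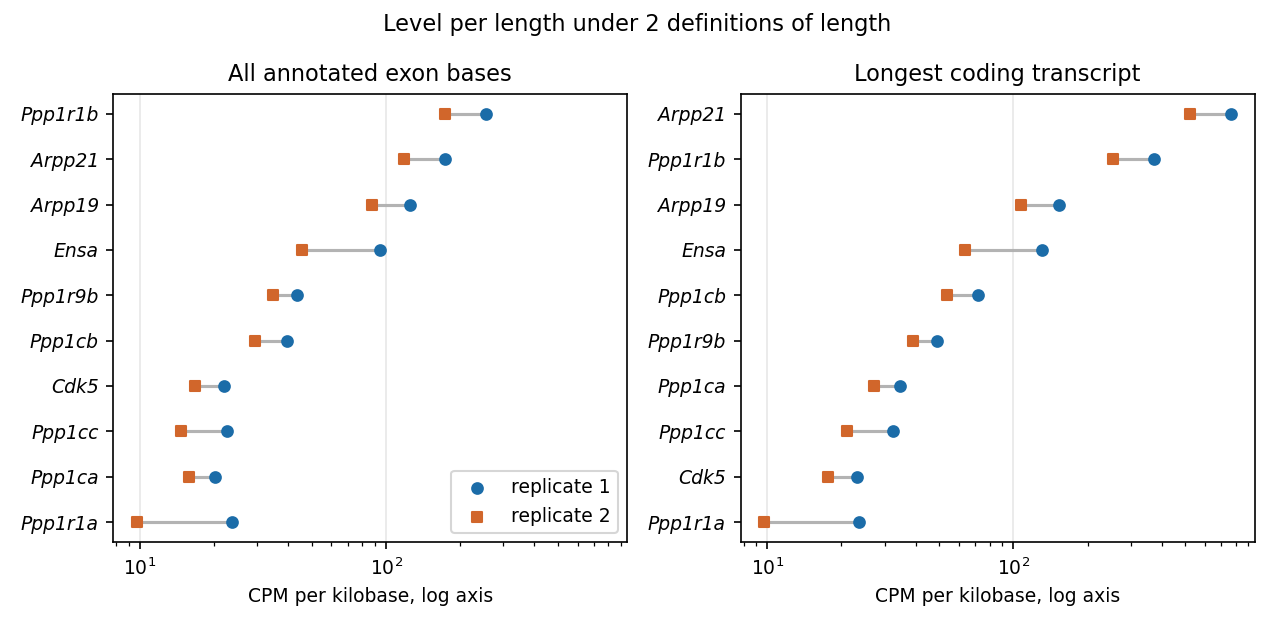
Level of each gene in CPM per kilobase (log axes) in replicate 1 (circles) and replicate 2 (squares), divided by all annotated exon bases (left) or by the longest coding transcript (right). Ppp1r1b leads on the left, at 255 and 173 CPM per kb, and Arpp21 on the right, at 768 and 522 CPM per kb, while Ppp1r1a has the lowest mean in both panels.

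Between the libraries, all 10 genes were lower in replicate 2. The log2 ratio of replicate 2 over replicate 1, after TMM scaling (edgeR's correction of library sizes by a trimmed mean of log ratios), ran from -0.34 for Ppp1r9b to -1.30 for Ppp1r1a, with a median of -0.55. Over all 12374 detected genes the median was -0.05, and 52.9% lay below 0. A gene was called where an exact binomial test on its reads gave a Benjamini-Hochberg adjusted p under 0.05 and the ratio was at least 2-fold. By that rule 17.5% of all detected genes were called, 8.6% towards replicate 1 and 8.91% towards replicate 2. Of the 10 genes, 2 were called, a share near the 17.5% for either direction. Both were called as higher in replicate 1, the direction with 8.6% of all detected genes. The test sets 2 libraries of a single group against each other, not conditions, and covers counting error alone.

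The called genes were Ppp1r1a and Ensa. Ppp1r1a was 2.47-fold lower in replicate 2, a log2 ratio of -1.30 (exact 95% interval -1.48 to -1.12, exact binomial test, adjusted p = 1.13e-49). With the trend of the ratio on exon length over all detected genes removed, its log2 ratio was -0.87, under the 2-fold limit. Ensa was 2.09-fold lower, with a log2 ratio of -1.07 (-1.11 to -1.02), just past the 2-fold limit. Next came Ppp1cc at -0.65 (-0.74 to -0.55), which was not called. Ppp1r1b and Arpp21 differed by nearly the same ratio, -0.58 (-0.61 to -0.54) and -0.58 (-0.59 to -0.56), but not with the length trend removed, at -0.40 and -0.95. Arpp19 was at -0.53, Ppp1cb at -0.45, Cdk5 at -0.41 and Ppp1ca at -0.38, of which the last 3 came to -0.67, -0.14 and -0.15 with the length trend removed. Of all detected genes 21.3% had a lower ratio than Ppp1r1b, and 4.60% a lower one than Ppp1r1a.

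Cell type markers also differed between the libraries, in both directions. Of the spiny projection neuron markers, 11 of 12 were lower in replicate 2 (median log2 ratio -0.31, 1 called), and the sum of the list was 0.793 times that in replicate 1, against 0.674 times for the 10 genes, most of whose reads are from Arpp21. Astrocyte markers were higher in replicate 2 in 10 of 10 cases, 8 of them called, with a median of 1.55 and a sum 3.31 times as high. Oligodendrocyte markers were higher in 9 of 9 cases, 3 of them called, with a median of 0.69. Microglial markers were lower in replicate 2 in 8 of 8 cases, 1 of them called, with a median of -0.49 and a sum 0.732 times that in replicate 1, nearer to the 10 genes than the spiny neuron list. The detected markers of other neurons were all higher in replicate 2, 4 of 4 cholinergic, 5 of 5 GABAergic and 2 of 2 glutamatergic. Their medians were 0.55, 0.49 and 1.13, with 1 called in each list. The GABAergic marker Pvalb, left out by the detection rule, ran the other way. It fell from 58 reads in replicate 1 to 15 in replicate 2 (2.25 to 0.507 CPM). The glutamatergic markers Neurod2 and Neurod6, left out too, rose from 1 to 8 and from 0 to 10 reads. Of 6 detected endothelial and mural markers, 4 were lower and 2 higher, with a median of -0.30. Called were 2, Pecam1 and Ly6c1, both as higher in replicate 1. The endothelial marker Cldn5, left out by the detection rule, rose from 4 reads in replicate 1 to 35 in replicate 2 (0.155 to 1.18 CPM). The defining astrocyte genes Slc1a3 and Aldh1l1 were at 41.3 and 184 CPM and at 2.13 and 8.12 CPM. The part of these cell types in the ratios was not tested. Fewer cells of a type, less RNA per cell and RNA pulled down without the tag cannot be told apart in such bulk libraries.

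**Figure D4:**
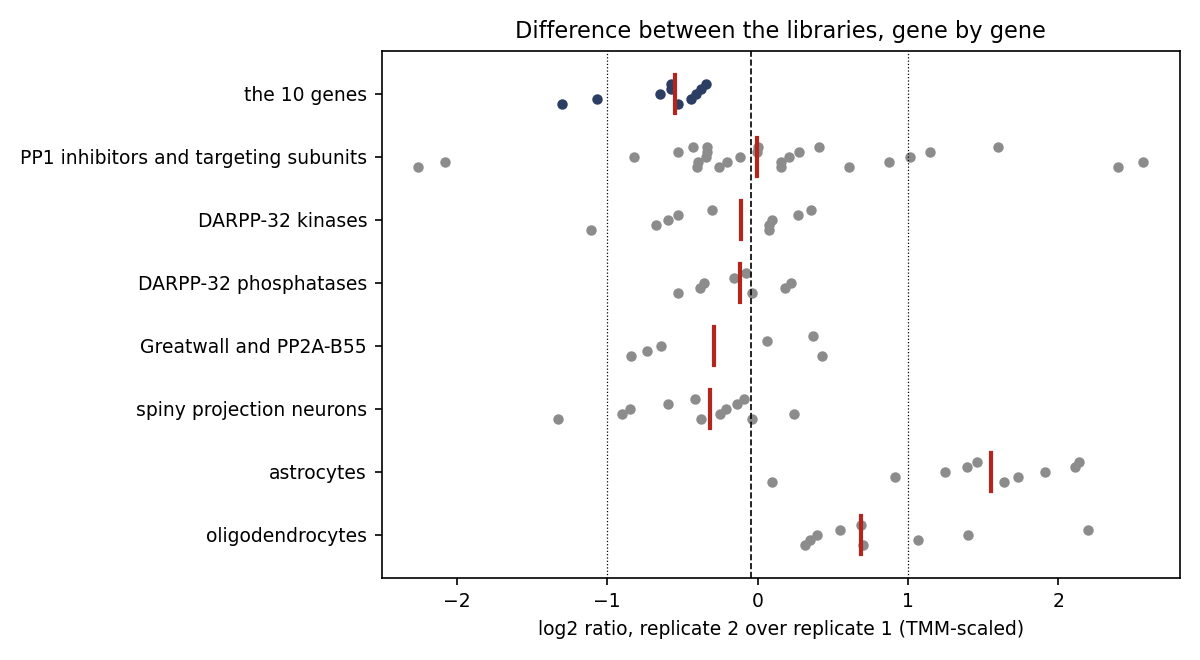
Log2 ratio of replicate 2 over replicate 1 (TMM-scaled) for each detected gene (points) of the 10 genes, 4 pathway lists and 3 marker lists, with list medians (red bars), the median of all detected genes (dashed) and the 2-fold limits (dotted). All 10 genes lie left of the dashed line, at a median of -0.55, while astrocyte markers have a median of 1.55.

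The other genes that act on or with PP1 did not shift one way. Of 35 genes of PP1 inhibitors and targeting subunits, 27 were detected, with a median log2 ratio of 0.00, 14 below 0 and 13 above. The highest per kilobase of exon were Ppp1r9a at 137 ± 41.6, the actin and PP1 regulator Phactr1 at 113 ± 0.967, inhibitor-2, Ppp1r2, at 79.9 ± 30.8 and the myosin phosphatase targeting gene Ppp1r12a at 32.6 ± 2.74 CPM per kb (SD, n = 2). Ppp1r18 was the lowest detected, at 0.611 CPM per kb, and Ppp1r17 had 0 reads in both libraries, which at a floor of 3 reads allows 0.116 and 0.101 CPM. Called as higher in replicate 2 were 5: Ppp1r15a, whose protein brings PP1 to the initiation factor eIF2 in the stress response, at a log2 ratio of 2.57, the glycogen targeting gene Ppp1r3c at 2.39, Phactr2 at 1.60, Ppp1r18 at 1.15 and Ppp1r14c at 1.01. Called as higher in replicate 1 were 2, Ppp1r14b at -2.26 and Ppp1r35 at -2.08, and all 7 of these had means below 30 CPM.

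All 10 genes of the kinases that phosphorylate DARPP-32 were detected. The PKA catalytic genes Prkacb and Prkaca led at 146 ± 8.17 and 75.8 ± 21.3 CPM per kb of exon, followed by the Cdk5 activator genes Cdk5r1 and Cdk5r2 at 51.4 ± 7.17 and 46.8 ± 14.8 CPM per kb (SD, n = 2). The lowest was the casein kinase 2 subunit gene Csnk2b at 2.86 ± 1.46 CPM per kb. It was also the only gene of this list called between the libraries, at a log2 ratio of -1.11, and the list median was -0.11 with 5 genes on either side of 0.

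Of the phosphatases that reverse DARPP-32 phosphorylation, 8 of 8 genes were detected and 0 were called. Calcineurin, the calcium-dependent phosphatase of the PKA site, led with its regulatory gene Ppp3r1 at 318 ± 21.5 and its catalytic gene Ppp3ca at 208 ± 20.7 CPM per kb of exon (SD, n = 2). With the longest coding transcripts Ppp3ca lay above Ppp3r1, at 437 and 359 CPM per kb. Another catalytic gene, Ppp3cb, was the lowest of the list, at 7.28 ± 0.0638 CPM per kb. The PP2A genes Ppp2r1a, a scaffold subunit, and Ppp2cb, a catalytic subunit, stood at 66.8 ± 1.92 and 62.5 ± 10.3 CPM per kb. Log2 ratios ran from -0.53 to 0.22, with a median of -0.12.

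On the pathway of ARPP-19 and ENSA, the Greatwall kinase gene Mastl was near the limit of detection, at 1.94 and 2.64 CPM from 50 and 78 reads. The B55 subunit genes of PP2A, their target, were higher. Ppp2r2c stood at 110 ± 37.9, Ppp2r2a at 46.8 ± 1.78, Ppp2r2b at 28.6 ± 8.59 and Ppp2r2d at 6.73 ± 2.65 CPM per kb of exon (SD, n = 2). All 6 genes of this list were detected and 0 were called, with a median log2 ratio of -0.29, 3 below 0 and 3 above.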

How the data were processed

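The deposited values are raw counts of reads per gene symbol, 1 file per library. Per the submitters' processing notes the authors used STAR 2.0.0e, HTSeq and build mm10. The sources used here do not name the annotation, strand setting or filters. How reads over bases shared by genes on opposite strands were counted is thus not known. Left out were 6 lines without a gene name. Among them were reads outside genes (22.8% and 31.0% of counted reads) and reads ambiguous between genes (1.84% and 2.08%). Members were read by symbol and scaled to CPM over named genes. Detection needed 1 CPM in each library. Exon lengths, coordinates and transcripts came from GENCODE M21 (GRCm38), and 92.7% of detected genes had a length. Libraries were compared by 2-sided exact binomial tests (scipy 1.17.1) on all detected genes with TMM scaling (edgeR 4.0.16), after a test on simulated data. With 1 group, no quasi-likelihood test could be fitted. Near copies were sought with BLAST 2.17.0, and coding sequences aligned with Biopython 1.88. DESeq2 1.42.0 size factors were an alternative. The members, pathway lists and markers were chosen with earlier results of these data known. Named were all members, and of each pathway list the 4 highest and the lowest detected gene per kilobase of exon, those called between the libraries and the number at 0 reads. Other names were chosen after their values were seen.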

Additional observations from a re-analysis of the deposited data

How the results depend on the processing

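Each of the 10 genes stayed lower in replicate 2 under CPM, DESeq2 size factors, CPM without the ribosomal precursor Rn45s and TMM over detected genes (added after the data were seen), and with the trend of the ratio on exon length removed. Under the last, Ppp1r1a came under the 2-fold limit, at -0.87, and Arpp21, Ppp1cb, Cdk5 and Ppp1ca moved by over 1.5 times, to -0.95, -0.67, -0.14 and -0.15. Of the 10 genes, 2 were called under each scaling and filter tried, 3 at a fold of 1.5 and 10 with no fold. Of all 12374 detected genes, 2167 (17.5%) were called, 4771 (38.6%) at a fold of 1.5 and 78.9% with no fold. With no filter beyond 1 read, 5820 of 18929 genes (30.7%) were called, and at a mean of 5 CPM 14.8%. Length mattered most for differences between genes. With the longest coding transcript and with no length, Ppp1r1b minus Ppp1r1a was 4.35 and 4.96, Ppp1ca minus Ppp1cb -1.02 and -3.04, Ppp1cb minus Ppp1cc 1.25 and 2.58, Ppp1ca minus Ppp1cc 0.23 (reversed) and -0.46, and Arpp21 minus Ppp1r1b 1.04 and 2.02 (both reversed). Leaving out a library gave -0.16 to 0.12 for Ppp1ca minus Ppp1cc, reversed without replicate 1, and no other of these differences changed sign. No paired analysis was possible because the series has 1 group. With a library left out, no test between libraries remains. At 374 reads or more for each of the 10 genes in each library, counting error was smaller than the difference between the libraries.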
